A study of Mus musculus with 15 samples.

Results

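The 80 cytosolic ribosomal protein genes of the mouse were followed in skin RNA. They were taken as all protein-coding rows of the deposited skin table named Rpl or Rps with a number, with an optional a, l or x at the end, together with Rplp0, Rplp1, Rplp2 and Rpsa, and they stand among 54532 genes in all. Of these members 49 carry large-subunit names and 31 small-subunit names, and they lie on 19 chromosomes. Skin labelled Trpv3-knockout (KO) or wild type (WT) was sampled after MC903 for 7 days or without treatment, with 3 libraries in each of the 4 groups. The groups are therefore MC903-treated KO, untreated KO, MC903-treated WT and untreated WT skin. MC903, also called calcipotriol, is an analogue of vitamin D that inflames mouse skin when applied to it, and Trpv3 encodes a cation channel of keratinocytes. The series design speaks of conditional knockouts, but which part of the gene was deleted, in which cells, the age of the mice and any vehicle were not stated in the sources at hand. Nothing in the labels ties the 3 libraries of a group to separate mice, so p-values measure the spread between libraries, which may be technical.

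A ribosome is built from ribosomal RNA and a single copy of most ribosomal proteins, so the genes for these proteins are usually expressed together in dividing and growing tissue. Their messages start with a run of pyrimidines, the 5' terminal oligopyrimidine (TOP) motif, through which the kinase mTOR and the RNA-binding protein LARP1 control their translation. Many of these genes also have processed pseudogenes or close relatives, so short reads can be hard to place.

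The starts of several members are printed to show the pyrimidine run and the CGGAAG core, the letters bound by ETS family factors such as GABP. Of the 80 members 60 were found in the RefSeq promoter table (GRCm38.p6), and the first start listed was used. A run of at least 8 pyrimidines between 30 bases before and 50 bases after the start was present in 46 of the 60 (76.7%), against 28.9% of all 27025 genes in the table. CGGAAG on either strand within the 300 bases of the window was present in 41 of the 60 (68.3%), against 17.2% of all genes. The longer CCGGAAGT, which contains CGGAAG, was present in 20% of the members and 4% of all genes, AAGATGGC on either strand in 6.67% and 2.88%, and TATAAA on the transcribed strand in 8.33% and 8.88%. The lines below give 100 bases on the transcribed strand, from 70 bases before to 30 bases after the start, with pyrimidine runs and CGGAAG or its reverse complement CTTCCG in capitals. Rps6 stands for the common pattern, Rplp2, Rpl7a and Rpl41 for members that were lower in KO than in WT skin after MC903, Rpl39 and Rps27 for members whose response to MC903 was called higher in KO skin, and Rpl3l for the muscle paralogue.
Rps6, chr4:86857338-86857437, minus strand: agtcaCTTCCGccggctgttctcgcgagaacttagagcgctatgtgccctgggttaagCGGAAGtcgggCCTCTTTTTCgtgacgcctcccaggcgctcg
Rplp2, chr7:141447581-141447680, plus strand: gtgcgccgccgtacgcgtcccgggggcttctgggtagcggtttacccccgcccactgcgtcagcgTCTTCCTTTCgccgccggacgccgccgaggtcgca
Rpl7a, chr2:26910737-26910836, plus strand: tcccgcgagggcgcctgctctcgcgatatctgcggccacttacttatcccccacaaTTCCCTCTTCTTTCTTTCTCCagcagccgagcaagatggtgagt
Rpl41, chr10:128549139-128549238, minus strand: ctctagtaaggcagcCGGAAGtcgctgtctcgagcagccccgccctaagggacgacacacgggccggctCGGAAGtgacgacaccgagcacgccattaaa
Rpl39, chrX:37085193-37085292, minus strand: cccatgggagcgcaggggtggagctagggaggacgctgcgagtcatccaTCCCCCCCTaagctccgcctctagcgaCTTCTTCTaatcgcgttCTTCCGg
Rps27, chr3:90213619-90213718, minus strand: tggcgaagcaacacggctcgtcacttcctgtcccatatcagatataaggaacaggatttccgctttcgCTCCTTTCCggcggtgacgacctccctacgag
Rpl3l, chr17:24727756-24727855, plus strand: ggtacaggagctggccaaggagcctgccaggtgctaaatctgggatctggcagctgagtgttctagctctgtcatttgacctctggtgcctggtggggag
Pyrimidine runs stand at the start of Rps6, Rplp2, Rpl7a and Rps27, and Rpl41 holds CGGAAG 2 times. The printed stretch of Rpl3l has no capitals, and the longest runs of Rpl3l and Rpl41, of 9 and 10 pyrimidines, lie downstream of the printed bases. These letters describe the windows and do not show that a factor binds there.

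The libraries held 16869716 to 18485698 reads on genes. The targeted gene Trpv3 had 6.82, 6.78 and 4.73 FPKM (fragments per kilobase of gene, scaled for depth) in MC903 KO skin, 3.17, 3.64 and 2.62 in untreated KO skin, 16.1, 17.0 and 19.0 in MC903 WT skin and 2.06, 2.71 and 1.13 in untreated WT skin. After MC903 it was lower in KO skin (log2 difference -1.45, limma adjusted p = 0.000316), while in untreated skin the genotypes overlapped (0.61, limma adjusted p = 0.103), so that a read count over the whole gene does not separate the untreated genotypes. Skin is a mixture of cells, and in such bulk samples fewer cells of a type and less RNA per cell cannot be told apart. Mitochondrially encoded messages took 1.72% to 2.89% of the reads in the libraries of the other 3 groups and 4.06% to 6.12% in untreated WT skin.

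The ribosomal protein genes together took 5.71%, 5.62% and 5.54% of the reads in MC903 KO skin, against 4.27%, 4.44% and 4.11% in untreated KO skin. In WT skin they took 7.11%, 6.37% and 7.78% after MC903, against 4.56%, 3.98% and 4.76% without treatment. The 3 MC903 WT libraries were thus the highest, the 3 MC903 KO libraries came next, and the untreated libraries of both genotypes overlapped. The median member had 337, 330 and 325 FPKM in MC903 KO skin, 231, 244 and 226 in untreated KO skin, 486, 416 and 523 in MC903 WT skin and 235, 212 and 276 in untreated WT skin. On the TPM scale, which gives every library the same total, the same genes took 9.70%, 9.56% and 9.21% in MC903 KO skin, 8.05%, 8.33% and 7.65% in untreated KO skin, 11.0%, 9.83% and 11.1% in MC903 WT skin and 8.03%, 7.05% and 8.57% in untreated WT skin. On every one of these measures the treated libraries of a genotype lay above its untreated ones.

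**Figure D1:**
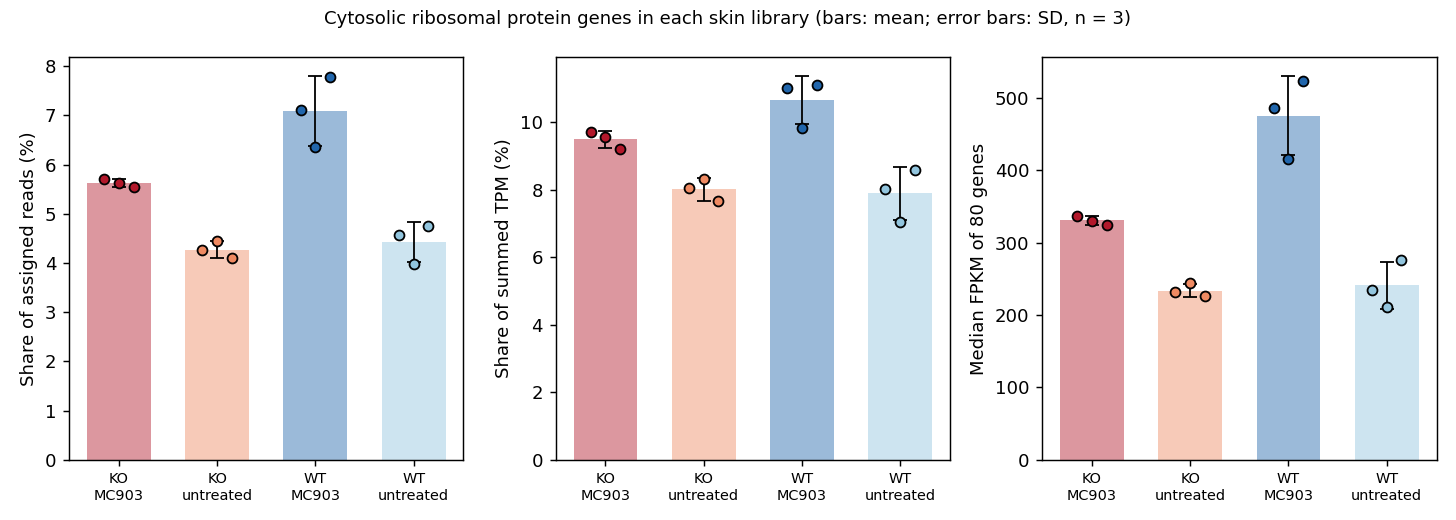
The summed share of reads (%), the summed share of TPM (%) and the median FPKM of the 80 genes in each of the 12 skin libraries. Points are libraries, bars are group means and error bars are SD (n = 3); MC903 WT skin, at 6.37% to 7.78% of reads, stands above MC903 KO skin at 5.54% to 5.71%.

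Levels per length spread widely. The mean over the 12 libraries reached 3654 FPKM for Rplp1 and 1447 FPKM for Rplp0, and the median member stood at 325 FPKM. Both genes belong to the ribosomal stalk that recruits translation factors. The gene length used was 499 bases for Rplp1, 1659 for Rplp0 and 2072 for Rplp2. For these genes it equals all annotated exonic bases, so the order of members by FPKM depends on the annotation. By reads, Rplp0 was above Rplp1 in every library. Of the 79 members that passed the filter of 0.5 FPKM in at least 3 libraries, 70 averaged at least 100 FPKM and 5 averaged under 20 FPKM. The 5 lowest were Rps10 at 1.74 FPKM, Rpl39l at 3.14, Rpl24 at 4.04, Rpl13a at 12.8 and Rpl3l at 16.8. The member that did not pass, Rpl10l, a retrogene used in the testis, was listed at 0 in all 12 libraries.

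Of those low values 3 belong to ordinary ribosomal proteins whose exons overlap another gene on the same strand that is itself listed at 0. The exons of Rps10 are shared over 20.6% of their bases with the read-through gene RPS10-NUDT3, those of Rpl24 over 47.0% with Gm28037, and those of Rpl13a over 29.4% with Gm45713. A read falling in 2 genes is commonly left uncounted, and the sources do not say how such reads were treated, so the levels of these 3 members are uncertain. On the opposite strand, Rpl35 shares 66.2% of its exonic bases with Wdr38 and Rpl23a 59.7% with Tlcd1, and the counting is not stated to use strand.

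Sequence sharing was widespread. In the longest coding sequence of each member, the share of 100-base stretches that also occur in a transcript of another gene had a median of 72.4%, and it was over 50% in 52 members and under 10% in 12. For the members with same-strand overlap it was 97.3% in Rpl13a, 100% in Rpl24 and 88.2% in Rps10. The table lists 391 ribosomal protein pseudogenes, 225 of them with reads, and 65 members have a pseudogene named after them. Rows of these pseudogenes held 3.55% to 4.26% as many reads as the members in each library. Of the 114 pseudogenes tested 26 (22.8%) were called higher and 2 lower after MC903 in KO skin, against 25% and 23% of all genes, and 54 (47.4%) higher and 4 lower in WT skin, against 32.6% and 30.3%. Over its whole transcripts Rpl7a shares 100-base stretches with 35 pseudogenes and Rpl21 with 37, so their values are uncertain too. The 12 members under 10% include Rps3, Rpl4, Rpl8, Rpl32 and Rpl41, and also the paralogues Rpl3l, Rpl39l and Rps27l. Their coding sequence is the least shared, and they are counted in each comparison below.

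Treatment with MC903 in WT skin was accompanied by higher values of nearly the whole group. In WT skin 72 of the 79 tested members were called higher and 1 lower after MC903 (limma, adjusted p below 0.05), against 32.6% of all 17646 genes tested called higher and 30.3% called lower. The median log2 fold change was 0.91, with 0.92 over the large-subunit and 0.91 over the small-subunit members, against 0.02 over all genes. All 3 MC903 libraries lay above all 3 untreated ones for 69 members, against 33% of all genes. Of the 12 members with little shared sequence 9 were called higher and 1 lower, with a median of 0.75. Those not called higher were the paralogues Rpl3l, Rpl39l and Rps27l. Markers of the epidermis and of dividing cells were higher after MC903 too. The summed level of 8 basal keratinocyte markers was 12371 to 17314 FPKM in MC903 WT skin, against 1737 to 2033 FPKM in untreated WT skin, with 6 called higher and 2 lower. That of 8 cell cycle markers was 152 to 177 FPKM, against 53.9 to 74.5 FPKM, with 8 called higher. Their part in the ribosomal protein values was not tested.

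The largest increases in WT skin were those of Rpl13a, Rpl7a and Rpl41. Rpl13a, a large-subunit protein that is also part of the GAIT complex described in human cells, had 26.1, 20.2 and 29.1 FPKM in MC903 WT skin, against 5.18, 5.32 and 5.12 in untreated WT skin (4.83-fold, log2 fold change 2.15 ± 0.14 SE, limma adjusted p = 3.74e-07). The groups did not overlap, although only part of its exons is free of the overlapping gene named above. Of its coding stretches 97.3% also occur in transcripts of other genes, and 1.96% in those of pseudogenes. Rpl7a, a large-subunit protein, had 158, 127 and 137 FPKM after MC903, against 43.6, 37.3 and 30.8 without (3.78-fold). Rpl41, the smallest ribosomal protein, had 1411, 1049 and 1606 FPKM after MC903, against 349, 249 and 570 without (3.48-fold, log2 fold change 1.86 ± 0.25 SE, limma adjusted p = 7.17e-05). Every treated library of both genes lay above every untreated one. Rpl41 shares none of its coding stretches with other genes, but its longest coding sequence has only 138 bases and so holds few such stretches. Over its whole transcripts 5.81% of the stretches also occur in Gm10076.

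The stalk proteins rose together in WT skin. Rplp1 had 5552, 5242 and 6537 FPKM after MC903, against 2506, 2101 and 3268 without, which is a 2.2-fold difference. Rplp0, the base of the stalk, had 2217, 2028 and 2085 FPKM, against 1126, 856 and 1066 (2.08-fold), and Rplp2, the partner of Rplp1, had 444, 321 and 438 FPKM, against 136, 104 and 221 (2.61-fold). No stalk gene overlapped between the treated and untreated WT libraries. Rps6, the small-subunit protein phosphorylated by S6 kinase downstream of mTOR, had 887, 806 and 942 FPKM after MC903, against 492, 454 and 464 without (1.87-fold, limma adjusted p = 1.36e-05). Rpsa, the laminin receptor precursor and a small-subunit protein, rose by 1.17 on the log2 scale. Rpl5 and Rpl11, which with 5S RNA can bind MDM2, rose by 0.78 and 1.05. Rps19, mutated in Diamond-Blackfan anaemia in humans, rose by 0.65, Rpl22 by 0.41 and Rpl38, needed for patterning of the mouse skeleton, by 1.03, all with a limma adjusted p below 0.05.

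In WT skin 6 tested members did not pass the test as higher apart from the 1 that fell. They were Rpl24 (log2 fold change -0.12), Rps27l (0.05), Rps27 (0.18), Rpl39 (0.26), Rpl39l (0.40) and Rps28 (0.47). Rps27l, a p53-responsive paralogue of Rps27, had 122, 99.3 and 136 FPKM after MC903, against 110, 112 and 120 without. Rpl39, a small protein of the exit tunnel, had 419, 402 and 523 FPKM after MC903, against 385, 420 and 315 without. For both genes the treated and untreated WT libraries overlapped. With each library scaled to its median member, Rps27l, Rpl39 and Rps27 were lower after MC903 in WT skin (log2 -0.93, -0.72 and -0.80). Their limma adjusted p values were 5.56e-06, 0.00204 and 0.000888. Rpl24 (-0.99) and Rps28 (-0.50) were called lower there too, and Rpl39l (-0.42, limma adjusted p = 0.314) was not. On this scale 23 members were called lower, so such a call was not particular to the genes named here. These genes were picked for low values in the same libraries, so the scaled values are no separate test.

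The same treatment in KO skin gave a smaller difference. In KO skin 45 of the 79 members were called higher and 1 lower after MC903, against 25% of all genes called higher and 23% called lower. The median log2 fold change was 0.45, with 0.43 over the large-subunit and 0.47 over the small-subunit members, against 0.00 over all genes. All 3 treated libraries lay above the untreated ones for 65 members, against 32% of all genes. Of the 12 members with little shared sequence 7 were called higher and 1 lower, with a median of 0.44. The summed basal keratinocyte markers had 3496 to 4885 FPKM in MC903 KO skin, against 2023 to 2314 FPKM in untreated KO skin, with 3 called higher and 3 lower, and the cell cycle markers 130 to 152 FPKM, against 63.0 to 73.0 FPKM, with 8 called higher. Of the members called higher, 42 were so in both genotypes, 3 in KO skin alone and 30 in WT skin alone, and 4 in neither. The MC903 comparisons of the genotypes share no libraries, but both use the same estimate of each gene's spread, so their calls are not independent.

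Rpl17, a protein near the exit tunnel, gave the largest increase in KO skin, with 649, 591 and 352 FPKM after MC903, against 191, 238 and 174 without (2.64-fold, log2 fold change 1.36 ± 0.20 SE, limma adjusted p = 0.000269). The treated library at 352 FPKM was clearly lower than the other two, but all 3 lay above the untreated ones. Rpl17 shares all its coding stretches with other genes, and over its whole transcripts it shares stretches with 15 pseudogenes. Rps6 had 756, 756 and 730 FPKM after MC903, against 416, 426 and 418 without (1.78-fold, limma adjusted p = 6.34e-05). Rpl39 had 523, 464 and 520 FPKM, against 253, 263 and 268 (1.92-fold), and Rps27, a zinc-finger protein of the small subunit, had 648, 665 and 760 FPKM, against 365, 388 and 370 (1.85-fold). The treated and untreated KO libraries of Rps6, Rpl39 and Rps27 did not overlap. The 3 members called higher in KO skin alone were Rps27, Rpl39 and Rps27l. Rps27l had 139, 122 and 136 FPKM in MC903 KO skin, against 100, 108 and 94.7 in untreated KO skin, with no overlap (log2 fold change 0.39, limma adjusted p = 0.0166). Rpl13a had 11.3, 14.7 and 15.8 FPKM, against 6.10, 7.39 and 6.68 (0.99, limma adjusted p = 0.00025). Rpl41 had 784, 713 and 807 FPKM, against 494, 498 and 474, and did not pass (0.65, limma adjusted p = 0.0546). For Rpl13a and Rpl41 every treated KO library lay above every untreated one. Rpl21 and Rpl13, lowest after Rpl3l, had log2 fold changes of -0.29 and -0.07, neither called.

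The stalk genes did not pass the test in KO skin. Rplp1 had 3586, 3455 and 3179 FPKM after MC903, against 2799, 2890 and 2732 without (log2 fold change 0.28, limma adjusted p = 0.258). Rplp0 had 1501, 1554 and 1400 FPKM, against 1193, 1232 and 1108 (0.33, limma adjusted p = 0.066). Rplp2 had 173, 171 and 171 FPKM, against 173, 173 and 163 (0.02, limma adjusted p = 0.955). For Rplp1 and Rplp0 the treated KO libraries still lay above the untreated ones, and for Rplp2 they overlapped. Of the 3 stalk genes 0 passed and 1, Rplp0, had an unadjusted limma p under 0.05, and with voom on recovered reads Rplp0 passed (adjusted p = 0.0228).

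Rps27a, which encodes ubiquitin fused to a small-subunit protein, had the second highest value in KO skin without passing the test. It had 465, 404 and 109 FPKM after MC903, against 216, 83.1 and 88.1 without (log2 fold change 1.23 ± 0.58 SE, limma adjusted p = 0.102). Its libraries overlapped, and its standard error was the largest of the 79 tested members. In WT skin it had 570, 497 and 666 FPKM after MC903, against 106, 263 and 326 without, and passed (log2 fold change 1.46, limma adjusted p = 0.0451), but the call was lost in 5 of the 6 fits that left out a WT library (limma adjusted p = 0.0567 to 0.176) and with TPM or total reads. All of its coding stretches also occur in transcripts of other genes. Over its whole transcripts it shares stretches with 5 other genes, 4 of them pseudogenes.

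**Figure D2:**
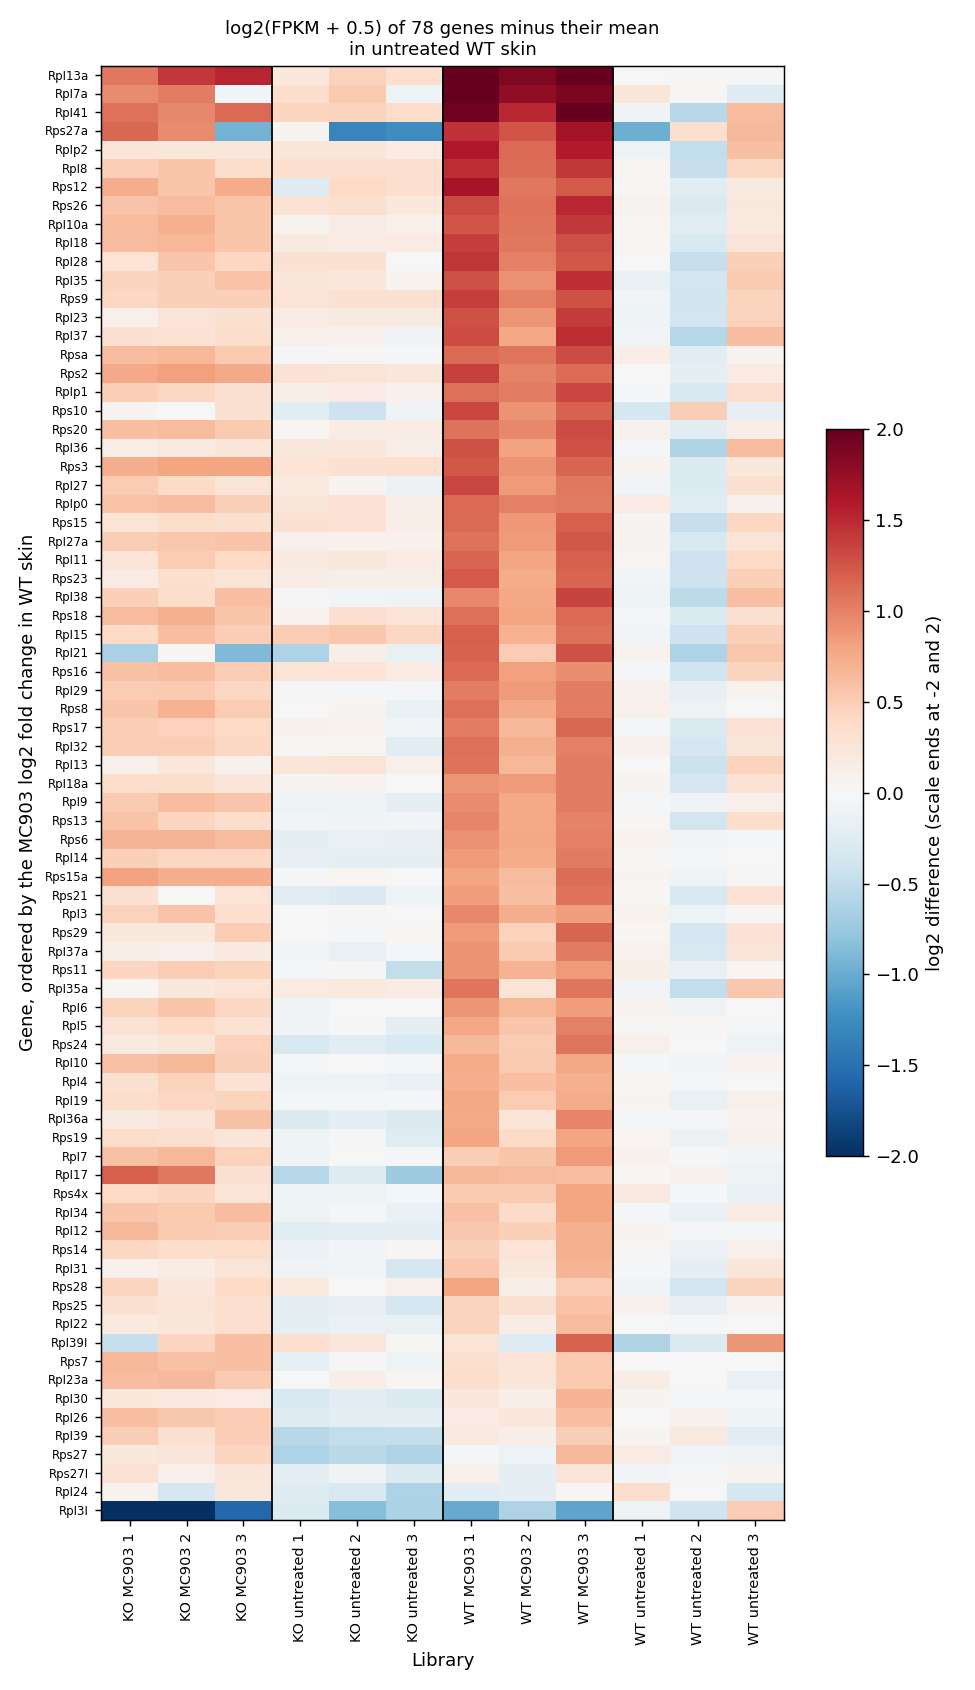
log2(FPKM + 0.5) of 78 of the 79 tested members in the 12 libraries, each minus its mean in untreated WT skin; rows run from the highest to the lowest MC903 log2 fold change in WT skin, and colours end at -2 and 2. The MC903 WT columns are red for nearly all rows and the MC903 KO columns paler, Rpl3l in the last row is blue, and Rps27a, Rpl17 and Rpl21 vary between libraries of 1 group.

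Rpl3l was the only member called lower after MC903 in either genotype. It replaces Rpl3 in ribosomes of heart and skeletal muscle. It had 4.70, 5.73 and 8.85 FPKM in MC903 KO skin, against 22.3, 14.8 and 17.3 in untreated KO skin (log2 fold change -1.45 ± 0.26 SE, limma adjusted p = 0.000961). In WT skin it had 13.3, 17.6 and 12.8 FPKM after MC903, against 25.2, 20.6 and 38.7 without (-0.89 ± 0.26 SE, limma adjusted p = 0.0112). In both genotypes all treated libraries lay below all untreated ones. After MC903 Rpl3l was also lower in KO than in WT skin (log2 difference -1.15, limma adjusted p = 0.00359), as were 14 of the 16 tested skeletal muscle markers. The partner Rpl3 rose to 346, 371 and 318 FPKM in MC903 KO skin, against 249, 256 and 252 in untreated KO skin, and to 488, 416 and 448 FPKM in MC903 WT skin, against 265, 235 and 254 in untreated WT skin. Of 16 tested skeletal muscle markers 15 were called lower and 0 higher after MC903 in KO skin, and 8 lower and 0 higher in WT skin. Of all genes 23% were called lower in KO skin and 30.3% in WT skin, and 26.1% in KO against WT skin after MC903. The summed level of the muscle list was 810 to 1243 FPKM in MC903 KO skin, 2563 to 3413 in untreated KO skin, 2407 to 3275 in MC903 WT skin and 3504 to 6765 in untreated WT skin, and its part in the values of Rpl3l was not tested. The other paralogues were Rpl39l (log2 fold change 0.00 in KO and 0.40 in WT skin, neither called) and Rps4x, the X-linked form of Rps4, which rose by 0.45 in KO and 0.61 in WT skin.

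After MC903, KO skin had lower values than WT skin for most members. Between the MC903 groups 0 of 79 members were called higher and 46 lower in KO skin, against 25.9% of all genes called higher and 26.1% called lower. With limma, 1 member was higher and 55 lower at an unadjusted p under 0.05, and voom on recovered reads called 1 higher and 54 lower. The median log2 difference was -0.45, with -0.50 over the large-subunit and -0.38 over the small-subunit members, against -0.03 over all genes. All 3 KO libraries lay below all 3 WT ones for 55 members, against 31.7% of all genes. Of the 12 members with little shared sequence 6 were called lower and 0 higher, with a median of -0.34. With TPM in place of the deposited scaling, 8 members were called higher and 20 lower, while 73.5% of all genes called were then higher in KO skin.

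The stalk genes were lower in KO skin after MC903. From the values above, the log2 differences were -0.76 for Rplp1, -0.51 for Rplp0 and -1.21 for Rplp2, with limma adjusted p = 0.00667, 0.00969 and 0.00107. The lowest log2 differences were those of Rpl21 and Rpl7a. Rpl21 had 21.4, 34.4 and 18.1 FPKM in MC903 KO skin, against 77.4, 48.3 and 82.6 in MC903 WT skin (log2 difference -1.49 ± 0.33 SE, limma adjusted p = 0.00301). Rpl7a had 71.1, 75.4 and 35.6 FPKM, against 158, 127 and 137 (-1.27 ± 0.26 SE, limma adjusted p = 0.00208). Neither gene overlapped between genotypes. Rps7, Rpl23a and Rpl17 stood at the other end with log2 differences of 0.24, 0.22 and 0.22, none of which passed the test.

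The epidermis of the MC903 groups also differed in its markers. Of all genes 26.1% were called lower and 25.9% higher in KO skin in this comparison. The summed level of 8 basal keratinocyte markers, Krt14 and Krt5 among them, was 3496 to 4885 FPKM in MC903 KO skin and 12371 to 17314 FPKM in MC903 WT skin, and 7 of the 8 were called lower in KO skin and 0 higher. The 8 cell cycle markers, such as Mki67 and Top2a, summed to 130 to 152 FPKM in MC903 KO skin and 152 to 177 FPKM in MC903 WT skin, with 3 called lower and 0 higher. The 8 fibroblast and matrix markers summed to 2441 to 3127 FPKM in MC903 KO skin and 785 to 943 FPKM in MC903 WT skin, with 7 called higher and 0 lower, and the 8 myeloid and neutrophil markers to 2146 to 2193 and 832 to 878 FPKM, with 7 called higher and 0 lower. The part of these marker lists in the ribosomal protein values was not tested.

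In untreated skin the genotypes were close together. Between the untreated groups 0 members were called higher and 1 lower in KO skin, against 7.15% of all genes called higher and 4.55% called lower, and at an unadjusted limma p under 0.05 the counts were 3 and 5. The median log2 difference was -0.02, against 0.01 over all genes. The single call was Rpl39, with 253, 263 and 268 FPKM in untreated KO skin, against 385, 420 and 315 in untreated WT skin (log2 difference -0.51 ± 0.13 SE, limma adjusted p = 0.0345). Its groups did not overlap, but the call was lost when any untreated library other than WT replicate 3 was left out (limma adjusted p = 0.0805 to 0.111). Rpl15, a protein of the large subunit, was highest at 0.49 and Rps27a lowest at -0.84, neither called. The result depended on the libraries used: without untreated WT replicate 3 there were 7 calls higher and 2 lower, and with library weights 9 higher and 10 lower. Untreated WT libraries varied most, with a median member at 235, 212 and 276 FPKM.

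The responses to MC903 were then compared directly. The difference between them (KO response minus WT response) was called lower for 32 members and higher for 2, against 19.7% of all genes called lower and 20% called higher, and the median was -0.46, against -0.01 over all genes. The estimate was below 0 for 65 of the 79 members. The lowest were Rpl7a at -1.53 ± 0.37 SE (limma adjusted p = 0.00812), Rplp2 at -1.42 ± 0.32 SE (limma adjusted p = 0.00513) and Rpl21 at -1.28 ± 0.47 SE (limma adjusted p = 0.0479). The call of Rpl21 was lost in 8 of the 12 fits that left out a library (limma adjusted p = 0.0709 to 0.109) and with pseudogene reads added, TPM or total reads. All 3 stalk genes were among the calls, with Rplp0 at -0.73 and Rplp1 at -0.88. Rpl41, Rpl13a, Rpl13, Rpl15, Rpl11, Rpsa and Rpl3 were called lower as well, at -1.21, -1.16, -0.997, -0.98, -0.85, -0.56 and -0.39. Among these and the stalk genes, leaving out a library ended the call of Rpl3 in 8 of 12 fits (limma adjusted p = 0.0649 to 0.0991), of Rplp1 in 4 (0.0511 to 0.060) and of Rpl11 in 2 (0.0512 and 0.0523). Rps6 was not, at -0.07 (limma adjusted p = 0.725). Of the 30 members called higher in WT skin alone, 20 had a call for the difference itself. Without untreated KO replicate 2, or without MC903 WT replicate 1, 21 members were called lower, and 14 without any filter on low values. With TPM 15 were called lower and 9 higher, with a median of -0.17, while 71.7% of all genes called were then higher.

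The 2 members with a higher response in KO skin were Rps27 and Rpl39. Rps27 had a difference of 0.70 ± 0.26 SE (limma adjusted p = 0.0474) and Rpl39 one of 0.68 ± 0.19 SE (limma adjusted p = 0.0157). Rps27 had 648, 665 and 760 FPKM in MC903 KO skin and 365, 388 and 370 in untreated KO skin, and 554, 524 and 884 FPKM in MC903 WT skin and 631, 540 and 522 in untreated WT skin. The call of Rps27 was lost in 10 of the 12 fits that left out a library (limma adjusted p = 0.0629 to 0.109). For both genes the untreated KO libraries were the lowest of the 4 groups. All coding stretches of Rps27 also occur in transcripts of other genes, Rps27rt among them, and 60.8% in those of pseudogenes. For Rpl39 the share with other genes was 16.7%. Rpl17 had the highest estimate, 0.73, but did not pass (limma adjusted p = 0.0618).

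**Figure D3:**
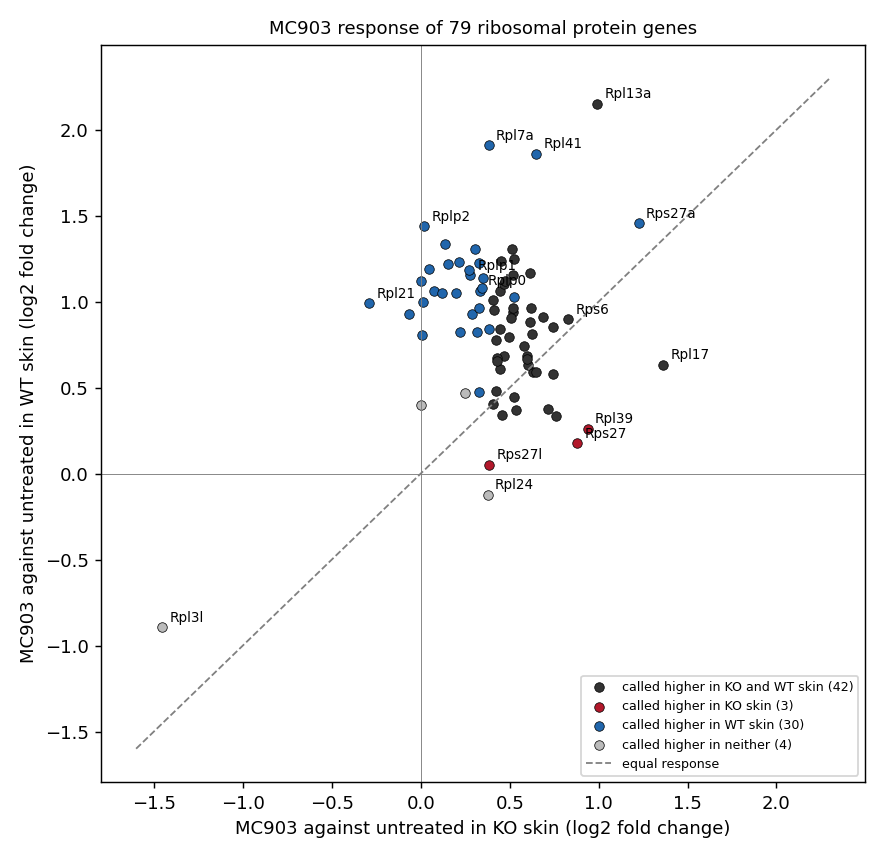
log2 fold change after MC903 in KO skin (x axis) and in WT skin (y axis) for the 79 tested members, coloured by the genotype in which they were called higher; the dashed line marks equal responses. Of the points 65 lie above the line, 42 members were called higher in both genotypes, and Rpl3l lies below 0 on both axes.

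The values depended on how libraries were scaled to each other. Against the median of all genes, the median of the members after MC903 was 0.45 higher in KO skin and 0.89 higher in WT skin under the deposited scaling, and 0.42 and 0.79 higher with TPM. With TPM the median of all genes itself shifted by -0.16 in KO and -0.36 in WT skin, and 29 members were called higher and 1 lower in KO skin, 47 higher and 3 lower in WT skin. With total reads the counts were 42 higher and 1 lower in KO skin, and 62 higher and 1 lower in WT skin. With the upper quartile they were 33 higher and 1 lower in KO skin, and 70 higher and 1 lower in WT skin. Adding the reads of pseudogenes to their parents gave 46 higher and 1 lower in KO skin, and 72 higher and 1 lower in WT skin. For KO against WT skin after MC903 the distance of the members to the median gene was -0.43 under the deposited scaling and -0.36 with TPM, and for the difference of the responses -0.45 and -0.40. TPM scaling multiplies all genes of a library by the same factor. These distances can thus change only through the 0.5 added to FPKM, and they do not test the scaling.

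**Figure D4:**
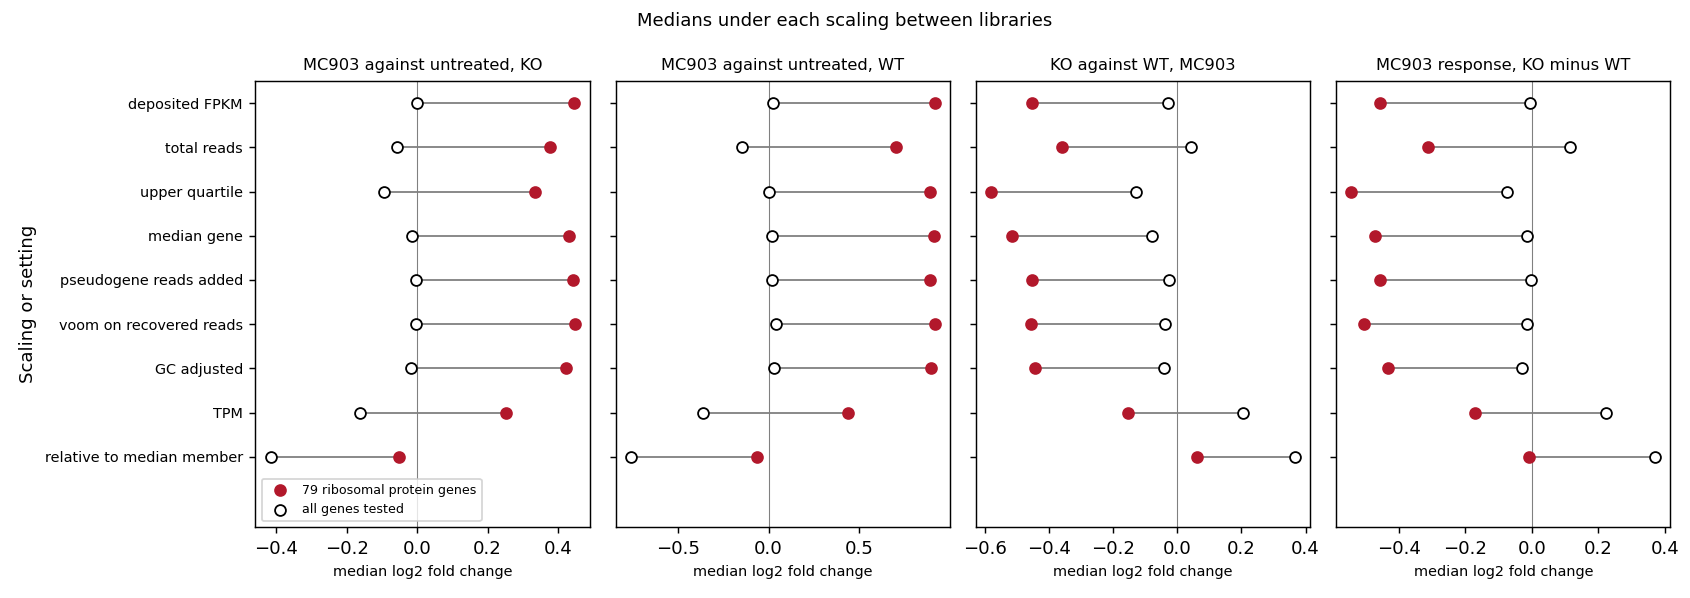
Median log2 fold change of the 79 members (filled points) and of all genes tested (open points) under each scaling or setting, for both MC903 comparisons, the genotypes after MC903 and the difference of the responses. The 2 points shift together, and their distance after MC903 stays between 0.36 and 0.45 in KO skin and between 0.69 and 0.89 in WT skin. A scaling multiplies all genes of a library by the same factor. Under the scalings the common shift is therefore by construction, apart from the 0.5 added to FPKM.

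How far a member departed from the rest went with the base composition of its coding sequence. GC content of the longest coding sequence ran from 43.1% to 61.6%. Across the 79 members, Spearman's rho between GC content and the log2 fold change after MC903 was -0.39 in KO skin and 0.48 in WT skin, and it was 0.54 for KO against WT untreated, -0.48 for KO against WT after MC903 and -0.57 for the difference of the responses. These are descriptions across genes of the same libraries, and genes are not independent replicates. Across 17631 genes the values were -0.25, 0.08, 0.31, -0.19 and -0.31. Of the 39 members below the median GC content of 52.9%, 5 were called lower and 2 higher for the difference of the responses, with a median of -0.16. Of the 40 others 27 were called lower and 0 higher, with a median of -0.73.

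Within single libraries the same order appeared: rho between GC content and the deviation of a member from its mean over all libraries was -0.28, -0.34 and -0.38 in MC903 KO skin, 0.28, 0.21 and 0.25 in untreated KO skin, 0.47, 0.45 and 0.21 in MC903 WT skin and -0.37, -0.55 and 0.06 in untreated WT skin. The untreated WT libraries thus differed from each other on this measure. Removing a trend of each library on GC content over all genes, a step chosen after the data had been seen, left 47 members higher and 1 lower after MC903 in KO skin, 73 higher and 1 lower in WT skin, and 0 higher and 48 lower in KO against WT skin after MC903. It left 26 members lower and 0 higher for the difference of the responses. Rps27 and Rpl39 no longer passed (limma adjusted p = 0.0706 and 0.0525), and neither did Rplp1 and Rpsa (0.0609 and 0.0685), which are among 7 lower calls that were lost. Rpl7a, Rplp2, Rplp0, Rpl21, Rpl41 and Rpl13a still passed. In KO skin Rplp0 then passed as higher after MC903 (limma adjusted p = 0.0188), and Rps27l and Rpl5 did not (0.326 and 0.103). The rho for the difference was -0.30 after this step, so a relation to GC content was still present.

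**Figure D5:**
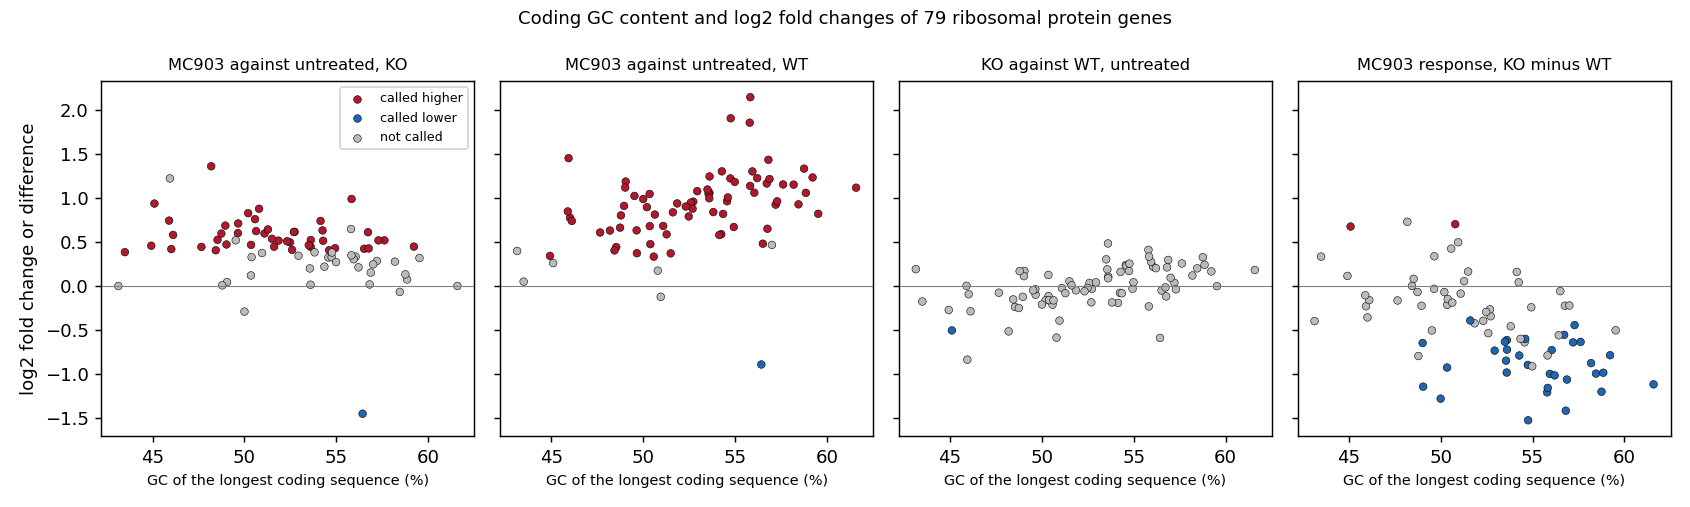
GC content of the longest coding sequence (%, x axis) against the log2 fold change or difference (y axis) of the 79 members in 4 comparisons; red points were called higher, blue points lower, grey points not called. Points rise with GC content after MC903 in WT skin (rho 0.48) and fall with it for the difference of the responses (rho -0.57).

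Other genes of ribosome production were counted from lists chosen for their role. After MC903, 25% of all genes were called higher and 23% lower in KO skin, and 32.6% and 30.3% in WT skin. Of 40 ribosome assembly factors and nucleolar proteins 38 were called higher and 0 lower after MC903 in KO skin (median log2 fold change 0.74), and 38 higher and 0 lower in WT skin (0.97). Nop58 and Nop56, core proteins of the box C/D snoRNA particles that methylate ribosomal RNA, were among them: Nop58 rose by 1.31 in KO skin (limma adjusted p = 2.48e-06) and Nop56 by 1.94 in WT skin (limma adjusted p = 2.19e-08). Between the MC903 groups 18 of the 40 were lower and 6 higher in KO skin (45% and 15%, against 26.1% and 25.9% of all genes). Fbl, the methyltransferase of those particles, was lower (log2 difference -0.97, limma adjusted p = 1e-05), and Tsr1, needed for the maturation of the small subunit, was higher (0.71, limma adjusted p = 2.05e-05).

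Of 14 subunits and factors of RNA polymerase I, which transcribes ribosomal RNA, 9 were called higher and 0 lower after MC903 in KO skin, and 12 higher and 0 lower in WT skin. The shares over all genes were 25% and 23% in KO skin, and 32.6% and 30.3% in WT skin. Polr1d rose by 0.67 in KO skin and by 1.63 in WT skin, and the difference was called (-0.96, limma adjusted p = 0.000299). Of 20 other messages of the TOP class, mostly translation factors, 15 were higher and 0 lower in KO skin, and 16 higher and 1 lower in WT skin. Eef1g, a subunit of elongation factor 1, rose by 0.95 in KO skin and 1.43 in WT skin, and Npm1, the nucleolar chaperone nucleophosmin, by 1.15 and 1.32. Between the MC903 groups 9 of the 20 were lower and 3 higher in KO skin (45% and 15%, against 26.1% and 25.9% of all genes).

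Of 9 snoRNA host genes, whose introns carry guide RNAs for ribosomal RNA, 6 were called higher and 0 lower after MC903 in KO skin, and 9 higher and 0 lower in WT skin, and 7 were lower and 0 higher in KO against WT skin after MC903. Of all genes 32.6% were called higher and 30.3% lower after MC903 in WT skin. Between the MC903 groups 26.1% of all genes were lower and 25.9% higher in KO skin. Zfas1 was lower in KO than in WT skin after MC903 (log2 difference -1.18, limma adjusted p = 7.42e-05). Of 10 cytosolic ribosomal proteins and relatives outside the naming rule 7 were higher and 0 lower after MC903 in KO skin, and 8 higher and 0 lower in WT skin. Rack1, a scaffold on the small subunit that is counted among the snoRNA hosts too, rose by 0.76 and 0.96. Of 77 mitochondrial ribosomal proteins 26 were higher and 0 lower after MC903 in KO skin (33.8% and 0%, against 25% and 23% of all genes), and 57 higher and 2 lower in WT skin, with medians of 0.17 and 0.47. Between the MC903 groups 46 of these 77 were lower and 0 higher in KO skin.

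Of 22 regulators of ribosomal protein synthesis 11 were higher and 1 lower after MC903 in KO skin (50% and 4.55%, against 25% and 23% of all genes). In WT skin 8 were higher and 6 lower (36.4% and 27.3%), near the 32.6% and 30.3% of all genes. Rps6kb2, an S6 kinase that phosphorylates Rps6, rose by 2.01 in WT skin (limma adjusted p = 1.68e-07) and was lower in KO than in WT skin after MC903 (-1.55, limma adjusted p = 4.47e-06). Sesn2, a leucine sensor that restrains mTOR complex 1, rose by 1.33 in KO and 1.46 in WT skin. Larp1, the TOP message binding protein, rose by 0.54 in KO skin (limma adjusted p = 0.00119).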

How the data were processed

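Gene-level FPKM values of 12 skin libraries were used as the authors deposited them. Per the submitters' processing notes, mm10 was the genome build and featureCounts a tool used; the aligner, versions, annotation release and treatment of reads with several placements were not stated there. Per the labels' protocols, poly-A RNA was primed with random hexamers. FPKM times gene length gave whole reads for 100% of values within a tolerance of 0.01, and the deposited FPKM denominators followed median-of-ratios size factors within 0.566%, so the values were taken as already scaled between libraries. Of 15 samples in the series, 3 were not analysed here.

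Genes with FPKM of at least 0.5 in at least 3 libraries (17646 of 54532) were fitted with limma and eBayes with a mean trend on log2(FPKM + 0.5) over the 4 groups, with 8 residual degrees of freedom. Log2 fold changes are on that scale, which understates changes of low genes. Values written as -fold are ratios of group means of FPKM, with nothing added. Tests were two-sided, with Benjamini-Hochberg adjustment over all genes within each comparison and a threshold of 0.05; every adjusted p in these texts comes from limma. Lists are described by counts and medians, with no test of a list.

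Shared sequence was counted as 100-base stretches of GENCODE vM21 transcripts, in which all 80 members were found, 78 with the coordinates of the deposited table. Promoter windows come from RefSeq. The GC trend was a lowess curve with span 0.3 per library over 17631 genes. Libraries of 1 group differed beyond the sampling noise of their reads (chi-square divided by its degrees of freedom, 7.81 to 41.7). Named were the 3 highest and 3 lowest members per comparison, members and paralogues fixed for their role, and up to 3 genes per list by adjusted p. Rps10, Rps28, Rpl35 and, for their unshared sequence, Rps3, Rpl4, Rpl8 and Rpl32 were named after their values were seen. The values of 1 member are not reported singly here. The members and lists were chosen with earlier results of these data known.

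Alternatives were other pseudocounts, filters, scalings, pseudogene reads added, robust moderation, library weights, voom on recovered reads, a replicate block, fits of the compared groups alone, leaving out each library and the GC adjustment, which was chosen after seeing the data. The procedure was tested on simulated data. Models were run in R 4.3.3 (limma 3.58.1), and tables, sequences and plots were made in Python 3.11.15 (pandas 2.3.3, numpy 2.4.6, matplotlib 3.10.9).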

Additional observations from a re-analysis of the deposited data

Results flagged for a closer look

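The response to MC903 differed between KO and WT skin by the direct test of the difference (limma, adjusted p below 0.05). It was lower in KO than in WT skin for 32 of the 79 tested members and higher for 2, against 19.7% and 20% of all genes tested. With TPM the counts were 15 lower and 9 higher, and with the GC adjustment 26 lower and 0 higher. Among the members named for their role or their rank, the difference of the log2 responses (KO minus WT) was -0.88 for Rplp1, -0.73 for Rplp0 and -1.42 for Rplp2, the stalk proteins. It was -1.21 for Rpl41, -1.53 for Rpl7a, -1.28 for Rpl21, -1.16 for Rpl13a, -0.997 for Rpl13, -0.98 for Rpl15, -0.85 for Rpl11, -0.56 for Rpsa and -0.39 for Rpl3. It was 0.70 for Rps27 and 0.68 for Rpl39. With 3 libraries in a group, single libraries were not tested as outliers.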

How the results depend on the processing

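The direction of the members' median after MC903 in either genotype, between the MC903 genotypes and for the difference of the responses was kept in every setting run, except that scaling each library to its median member turned it in the first 3 of these 4. The counts of calls depended more on the scaling. With TPM, 29 members were higher in KO skin after MC903, 47 higher and 3 lower in WT skin, 2 lower in untreated KO against WT skin, 8 higher and 20 lower in KO against WT skin after MC903, and 9 higher and 15 lower for the difference of the responses. The medians were then 0.25 in KO and 0.43 in WT skin, -0.16 for the MC903 genotypes and -0.17 for the difference, and in WT skin the log2 fold changes of Rpl22, Rpl23a and Rps7 turned to -0.0723, -0.11 and -0.11. Relative to the median member, 4 members were higher and 12 lower in KO skin after MC903, 8 higher and 23 lower in WT skin, 1 higher and 0 lower in untreated skin, 17 higher and 5 lower between the MC903 genotypes, and 15 higher and 10 lower for the difference, with medians of -0.0521, -0.0658, 0.0601 and -0.0076 in the comparisons other than untreated. On that scale members called higher on the deposited scale after MC903 in WT skin had values below 0 for Rpl10 (-0.30), Rpl13 (-0.0495), Rpl17 (-0.35), Rpl22 (-0.57), Rpl23a (-0.61), Rpl3 (-0.14), Rpl5 (-0.20), Rps19 (-0.33), Rps4x (-0.37), Rps6 (-0.0817) and Rps7 (-0.61), of which Rpl13, Rpl17, Rpl3, Rpl5 and Rps6 were not called there. In KO skin such members, none of them called on the relative scale, were Rpl22 (-0.0900), Rpl3 (-0.0507), Rpl5 (-0.0775), Rps19 (-0.0692), Rps27l (-0.11) and Rps4x (-0.0530). Between the MC903 genotypes Rpl3 (0.13), Rpl5 (0.0660), Rplp0 (0.0091) and Rps19 (0.17) turned above 0, as did Rpl3 (0.0892) for the difference of the responses. These changes of sign follow from setting the median member to the same value in every library.

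With total reads, 2 members were higher between the MC903 genotypes, 2 lower in untreated skin and 6 higher for the difference, and the WT median was 0.70. With the upper quartile, 1 was higher for the difference, and the medians were 0.33 in KO skin and -0.58 between the MC903 genotypes. With the median gene, 1 was higher for the difference and 2 were lower in untreated skin. With library weights, 9 were higher and 10 lower in untreated skin, 1 higher between the MC903 genotypes, 6 higher for the difference and 2 lower in WT skin. With voom, 1 was higher between the MC903 genotypes, 2 lower in untreated skin and 5 higher for the difference. Without a filter, 1 was higher and 14 lower for the difference and 0 lower in untreated skin, where a fit of only those groups also gave 0. With the GC adjustment, 0 were higher for the difference. Leaving out single libraries gave 0 to 7 higher and 0 to 2 lower in untreated skin, 0 to 3 higher between the MC903 genotypes, 1 to 5 higher and 21 to 40 lower for the difference, and a WT median of 0.77 to 1.01. Apart from the scaling by construction named above, the cause was not tested.

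Replicate numbers gave no clear pairing of the samples. Over 18 pairs with the same number the correlation of deviations ran from -0.13 to 0.17, with a median of 0.02 and 3 over 0.1. Over 36 pairs with different numbers it ran from -0.21 to 0.17, with a median of -0.01 and 5 over 0.1. With 3 libraries in a group this check cannot exclude pairing. With the replicate block 46 and 72 members were higher after MC903 in KO and WT skin, 0 lower in untreated skin, 49 lower between the MC903 genotypes and 32 for the difference. Depth was lowest for Rpl39l with 24 to 87 reads per library, Rps10 with 35 to 149 and Rpl24 with 52 to 118.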
